A study of Mus musculus with 45 samples.

Results

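The genes described here encode G protein-coupled receptors for serotonin, acetylcholine and histamine in the mouse nucleus accumbens after chronic intermittent ethanol (CIE). They were chosen by symbol: Htr1b, Htr2a, Htr2c, Htr4, Htr6, Chrm1, Chrm4, Hrh1, Hrh2 and Hrh3, through every array probeset whose platform annotation gives 1 of these symbols alone. This found 14 probesets of 9 genes, out of 45037 probesets and 18193 named genes in all, while Htr2a was matched by no probeset under this rule and was not analysed here. Hrh3, the presynaptic histamine receptor, was higher in CIE than in control mice at 0 h (change 0.45 on the log2 scale, SE 0.10), and it was the 1 member probeset of 14 that passed the test at any of the 4 times. That call was lost in some alternative fits, and 9 of 12 fits that each left out 1 array of 0 h passed.

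All mice were adult male C57BL/6J, an inbred laboratory strain. The CIE mice were injected before each cycle with 1.6 g/kg ethanol and, to slow its breakdown by alcohol dehydrogenase, 1 mmol/kg pyrazole, and then breathed ethanol vapor (10 to 13 mg/l air) for 16 h a day on 4 days, with 7 days of abstinence between cycles, over 4 cycles. The control mice (Ctrl) received saline in place of ethanol, the same pyrazole, and air, so pyrazole was common to both groups and no group without it was measured. Tissue of the nucleus accumbens came from mice killed 0 h, 8 h, 72 h or 7 d past the end of the final exposure, from 6, 5, 5 and 6 CIE mice and from 6, 5, 6 and 6 Ctrl mice, with 1 Affymetrix array for each of the 45 mice. Values are log2 expression values of a probeset, so a difference of 1 is a doubling. A percentile ranks the mean level of a probeset among all probesets and is only a rough guide to its brightness, since probes bind with different efficiency, and no level is compared between members.

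Serotonin reaches the accumbens from the raphe nuclei and histamine from the tuberomammillary nucleus of the hypothalamus, whereas acetylcholine comes largely from interneurons within it. Receptors for the 3 transmitters are usually grouped by G protein: Htr2c, Chrm1 and Hrh1 couple to Gq and raise intracellular calcium through phospholipase C, Htr1b, Chrm4 and Hrh3 couple to Gi and lower cyclic AMP, and Htr4, Htr6 and Hrh2 couple to Gs and raise it. Several of them act presynaptically, Htr1b and Hrh3 being known as receptors that reduce transmitter release from the terminal.

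Defining markers of medium spiny neurons, the main cell type of the accumbens, were read by bright probesets. Drd1, Penk, Tac1 and Ppp1r1b stood at the 98.5th, 99.9th, 99.3rd and 97.5th percentile of all probesets by mean level, and Drd2 at the 86.1st. The labels name no batch, but values equal to the last digits were shared within 6 sets of 6 to 8 arrays and hardly between them, and these inferred groupings are called hybridization sets here. No set held more than 1 array of a group, 1 Ctrl 0 h array (replicate 20) fell in no set, and CIE and Ctrl shared 5 sets at each of the first 3 times and 6 sets at 7 d. Differences are therefore also given within sets. In bulk tissue, fewer cells of a type and less RNA per cell cannot be told apart.

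At 0 h, 1 of the 14 member probesets passed an adjusted p of 0.01 in the limma fit (Benjamini-Hochberg over all probesets), against 1.59% of all probesets. At an unadjusted p under 0.05 there were 3 of 14 against 16.5% of all. None of the 14 passed at 8 h (0.0622% of all probesets), at 72 h (0.00%) or at 7 d (0.00%), and at an unadjusted p under 0.05 there were 2, 1 and 1 of 14, against 7.42%, 7.20% and 2.34% of all. In the order of the times, the median change of the members was −0.09, −0.02, 0.08 and −0.05. The signs were mixed at each time, with 5, 6, 8 and 4 of 14 probesets higher in CIE.

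**Figure D1:**
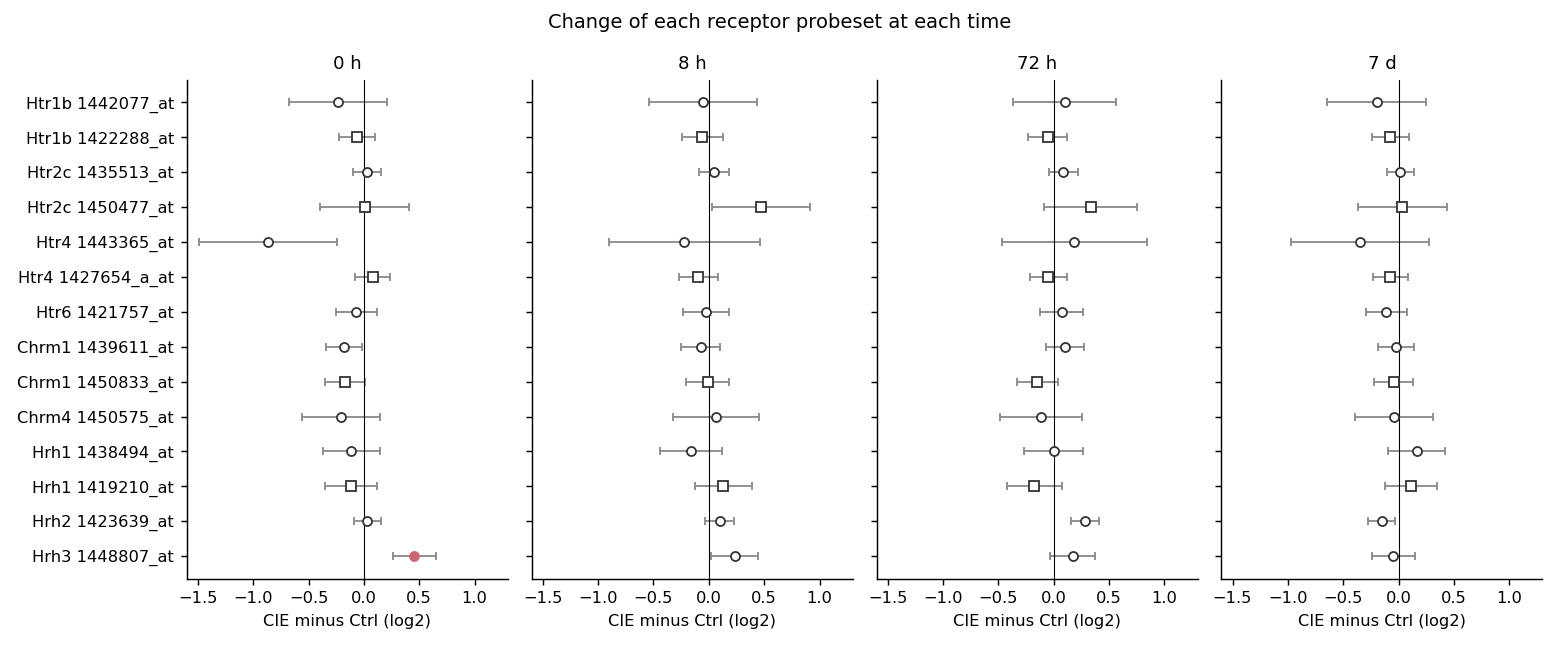
CIE minus Ctrl difference (log2, x axis) of the 14 probesets of the 9 receptor genes at 0 h, 8 h, 72 h and 7 d, with 95% confidence intervals as bars. Circles are each gene's brightest probeset, squares the other one, and the filled red point marks the 1 difference with an adjusted p of 0.01 or less, Hrh3 at 0 h (0.45).

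Among the histamine receptors, Hrh3 (1448807_at, gene at chr2:180099465-180104484 in GRCm38.p6, minus strand), the Gi-coupled autoreceptor and heteroreceptor of histamine terminals and of striatal neurons, rose at 0 h. Its probeset is bright, at the 86.0th percentile. In the 6 Ctrl arrays at 0 h the lowest, median and highest values were 9.82, 10.04 and 10.27 (10.03 ± 0.18, SD, n = 6). In the 6 CIE arrays they were 10.34, 10.49 and 10.64 (10.49 ± 0.11, SD, n = 6). The lowest CIE array was above the highest Ctrl array, and 1.35% of all probesets had groups without overlap, in either direction, at that time. The change was 0.45 (SE 0.10, 95% confidence interval 0.26 to 0.65), a 1.37-fold difference, with a limma adjusted p = 0.00313.

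Within hybridization sets, the CIE array was above the Ctrl array for Hrh3 in 5 of 5 sets at 0 h, by 0.07 to 0.74. With the set as a block in the fit, where Ctrl replicate 20 formed a set of its own, the difference was 0.48, and its limma adjusted p of 0.0127 no longer passed 0.01. Fitting the arrays of 0 h alone also gave an adjusted p above the threshold (0.031). In a two-sided exact permutation test of this probeset alone p was 0.00217, the smallest that 6 against 6 arrays can give, among 56 such tests run on the members. After Benjamini-Hochberg adjustment over those 56 tests the permutation p was 0.121. Leaving out single arrays kept the difference between 0.41 and 0.50, and 9 of 12 such fits passed. The call was lost without Ctrl 0 h replicate 30 (adjusted p = 0.0129), Ctrl 0 h replicate 48 (0.0117) or CIE 0 h replicate 26 (0.01004).

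At 8 h the 5 Ctrl arrays read 9.93, 10.09, 9.98, 10.05 and 9.86 for Hrh3, and the 5 CIE arrays read 10.49, 10.10, 10.14, 9.99 and 10.38. These groups overlapped, and the difference of 0.23 (SE 0.10) had a limma adjusted p of 0.590. At 72 h the 6 Ctrl arrays had a lowest, median and highest value of 9.68, 10.02 and 10.20, and the 5 CIE arrays read 10.18, 10.34, 10.19, 10.20 and 9.93. The difference of 0.17 did not pass (adjusted p = 0.728). At 7 d the CIE and Ctrl means were 10.03 ± 0.25 and 10.08 ± 0.13 (SD, n = 6 each), a difference of −0.05 with a 95% interval of −0.24 to 0.15.

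The 8 group means of Hrh3 ran, from the highest, as CIE at 0 h (10.49), CIE at 8 h (10.22), CIE at 72 h (10.16), Ctrl at 7 d (10.08), Ctrl at 0 h and CIE at 7 d (10.03 each), Ctrl at 72 h (9.99) and Ctrl at 8 h (9.98). Below the first, each neighbour in this order differed from the next by less than the SD of either group. Within the CIE mice Hrh3 fell from 0 h to 7 d by 0.45 on the log2 scale (adjusted p = 0.00304, limma; 1.50% of all probesets passed), and 0.00965 with the set as a block. It is the same CIE 0 h arrays that enter this comparison and that against Ctrl, and the call was lost without CIE 0 h replicate 26 or CIE 7 d replicate 13. The steps from 0 h to 8 h (−0.27, adjusted p = 0.199) and to 72 h (−0.32, adjusted p = 0.0612) did not pass, where 0.633% and 1.62% of all probesets did. The test of the CIE effect at 7 d against that at 0 h gave −0.50 (SE 0.14) with a limma adjusted p = 0.0682, so the difference between the times was not called (0.200% of all probesets were). In the Ctrl mice no step from 0 h to a later time passed for Hrh3 or any other member, where 0.00%, 0.0488% and 0.0799% of all probesets did at 8 h, 72 h and 7 d.

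The promoter of Hrh3 is shown because this gene carries the difference at 0 h, beside that of Htr1b, the member whose level moved most closely with the neuronal markers described further on. The sequences are the RefSeq bases ahead of each gene's start in GRCm38.p6, read 5′ to 3′ on the minus strand, chr2:180104485-180104657 for Hrh3 and chr9:81633833-81634082 for Htr1b, and capitals mark the GC box letters GGGCGG.
Hrh3: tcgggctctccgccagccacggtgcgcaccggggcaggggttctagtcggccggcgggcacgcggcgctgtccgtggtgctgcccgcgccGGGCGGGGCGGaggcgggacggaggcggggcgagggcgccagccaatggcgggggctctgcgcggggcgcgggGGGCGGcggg
Htr1b: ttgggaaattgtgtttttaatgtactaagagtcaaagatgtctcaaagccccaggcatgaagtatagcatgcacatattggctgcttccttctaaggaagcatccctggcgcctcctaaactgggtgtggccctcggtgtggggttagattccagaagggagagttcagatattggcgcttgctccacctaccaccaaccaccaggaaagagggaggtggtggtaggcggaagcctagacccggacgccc
The Hrh3 window of 173 bases is 83.2% G and C with 29 CpG, and 0.426% of 32851 promoters are at least as rich in G and C over the same length. It holds 3 matches to GGGCGG, counting both strands and with 2 of them overlapping, while 19.9% of promoters have a match in a window of that length and 2.87% have at least as many. The Htr1b window of 250 bases is 52.4% G and C with 6 CpG and has no match, where 32.7% of promoters have one. Neither window holds, on either strand, the letters TGACG of a cyclic AMP response element core, CACGTG of an E box or TATAAA of a TATA box, which 10.1%, 3.48% and 8.16% of promoters hold in a window of the Hrh3 length.

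**Figure D2:**
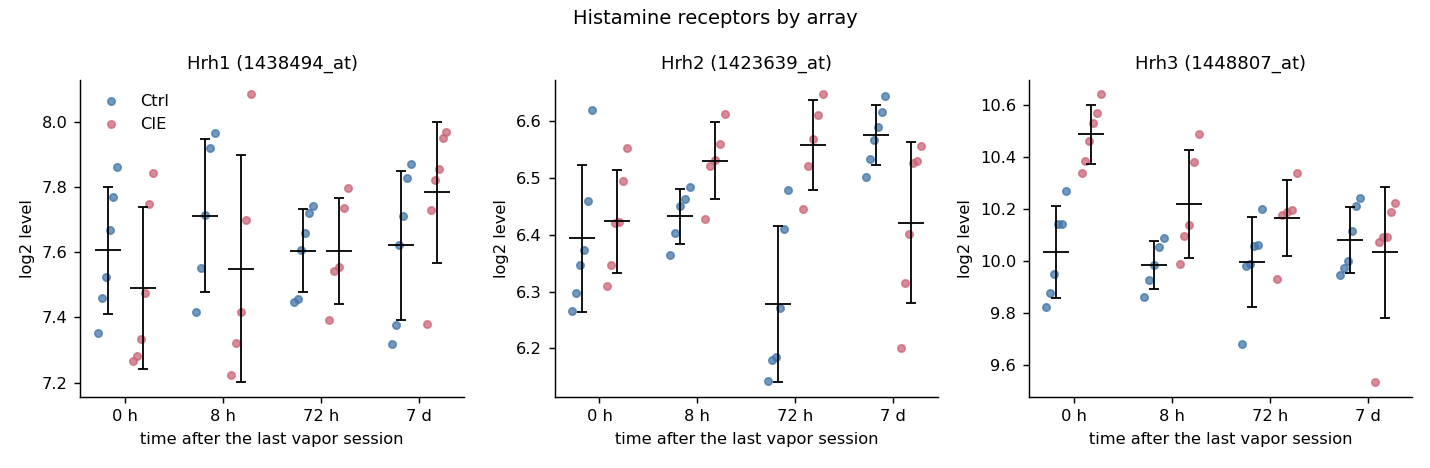
Log2 expression (y axis) of Hrh1, Hrh2 and Hrh3 by group and time (x axis), with 1 point for each array and black marks for the mean ± SD. Hrh3 at 0 h is the pair of groups without overlap (Ctrl up to 10.27, CIE from 10.34), while the Hrh2 groups at 72 h overlap.

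Hrh2 (1423639_at, chr13:54191970-54236182), the Gs-coupled histamine receptor, had its widest separation at 72 h. In the 6 Ctrl arrays at 72 h the lowest, median and highest values were 6.14, 6.23 and 6.48 (6.28 ± 0.14, SD, n = 6). The 5 CIE arrays read 6.57, 6.65, 6.52, 6.45 and 6.61 (6.56 ± 0.08, SD, n = 5). The groups overlapped by 1 array on each side, where 0.915% of all probesets had no overlap, and CIE was above Ctrl in 5 of 5 hybridization sets, by 0.09 to 0.47. The difference was 0.28 (SE 0.06, 95% interval 0.15 to 0.41), with a limma adjusted p = 0.673 over all probesets, so it was not called. A two-sided exact permutation test of this probeset alone gave p = 0.00866, and 0.242 after Benjamini-Hochberg adjustment over the 56 such tests on the members. With array weights in the fit the adjusted p was 0.00893, and over all 8 alternatives it ran from that value to 0.894.

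At 7 d the Hrh2 difference had the other sign, with Ctrl values of 6.50, 6.58 and 6.64 (lowest, median, highest) and CIE values of 6.20, 6.46 and 6.56. CIE was below Ctrl in 6 of 6 sets, by 0.01 to 0.44, and the difference of −0.15 was not called (95% interval −0.28 to −0.03, adjusted p = 1.00 as rounded). At 0 h and 8 h the differences of 0.03 and 0.10 did not pass either. Of all group means of Hrh2, the lowest and the highest were both Ctrl, 6.28 at 72 h and 6.58 at 7 d. The CIE means were 6.42, 6.53, 6.56 and 6.42 in the order of the times. Between 72 h and 7 d the Ctrl means thus differed more than the CIE means did. A joint limma test of the 4 differences gave Hrh2 an adjusted p of 0.0147 and Hrh3 0.0111, both above 0.01, against 0.901% of all probesets that passed. No member passed for the mean of the 4 differences (0.542% of all probesets), nor in the joint F test of the 4 times within Ctrl (0.233%) or within CIE (2.27%). Hrh1 (1438494_at, chr6:114397936-114483298), the Gq-coupled receptor, had differences between −0.16 and 0.16 at the 4 times, each with a 95% interval that spanned 0. Its other probeset (1419210_at) had differences between −0.17 and 0.13, none called, and went weakly with the first across arrays (r = 0.14).

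The serotonin receptors did not pass at any time. Htr4 (1443365_at, chr18:62323546-62503027), a Gs-coupled receptor of striatal projection neurons, had the widest difference of all members at 0 h. Its 6 Ctrl arrays had a lowest, median and highest value of 6.64, 7.18 and 7.86, and its 6 CIE arrays 5.46, 6.24 and 7.13. The ranges overlapped, CIE was below Ctrl in 4 of 5 sets, and the difference of −0.87 (SE 0.31, 95% interval −1.49 to −0.24) had a limma adjusted p = 0.112. The other probeset of Htr4 (1427654_a_at), at the 14.9th percentile of mean level, had a difference of 0.08. Over 45 arrays, with group means left in, the pair of probesets was uncorrelated (r = −0.01). At 8 h, 72 h and 7 d the differences of 1443365_at were −0.22, 0.19 and −0.35, each with an interval that spanned 0.

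Htr1b (1442077_at, chr9:81628291-81633832), the terminal autoreceptor and heteroreceptor of serotonin, varied more between mice than between groups. At 0 h its Ctrl arrays lay between 10.58 and 11.35 (median 10.86) and its CIE arrays between 9.81 and 11.37 (median 10.68). The CIE range enclosed the Ctrl range, and the difference of −0.23 had a 95% interval of −0.68 to 0.21. Over the 8 groups its means ran from 10.50 in CIE at 7 d to 10.97 in Ctrl at 8 h, a range of 0.47 beside SDs of 0.17 to 0.63. Its other probeset (1422288_at) moved with it across arrays (r = 0.61) and also had no called difference.

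Htr2c (1435513_at, chrX:146962464-147197277), the Gq-coupled receptor that is also abundant in choroid plexus, was read by a bright probeset, at the 97.6th percentile. Its 8 group means lay within 0.15 of each other, from 12.06 in Ctrl at 72 h to 12.21 in CIE at 7 d, and the 4 differences between CIE and Ctrl were 0.03, 0.04, 0.09 and 0.02. The 95% intervals of these differences reached no further than −0.11 and 0.22 at any of the 4 times. The other Htr2c probeset (1450477_at) read 0.47 higher in CIE at 8 h (limma adjusted p = 0.628) and 0.33 higher at 72 h, neither called. CIE was above Ctrl in 4 of 5 sets at each of these times. At 0 h and 7 d its differences were 0.01 and 0.04. The Htr2c probesets correlated at r = 0.42 across arrays. Htr6 (1421757_at, chr4:139059706-139075570), the Gs-coupled receptor found mainly in striatum, had group means from 5.98 to 6.14 and differences between −0.11 and 0.07, all with intervals that spanned 0.

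Of the muscarinic receptors, Chrm1 (1439611_at, chr19:8664005-8683606), Gq-coupled and present on most projection neurons, read lower in CIE at 0 h. The lowest, median and highest values were 9.75, 9.94 and 10.17 in the Ctrl arrays and 9.52, 9.76 and 9.97 in the CIE arrays. The ranges overlapped, although CIE was below Ctrl in 5 of 5 sets, by 0.08 to 0.44. The difference of −0.18 (SE 0.08, 95% interval −0.34 to −0.01) was not called (limma adjusted p = 0.249), and the other Chrm1 probeset (1450833_at) had −0.17. These Chrm1 probesets did not move together across arrays (r = −0.07). Chrm4 (1450575_at, chr2:91922189-91929835), the Gi-coupled receptor of striatonigral medium spiny neurons, had differences of −0.21, 0.07, −0.11 and −0.04 at the 4 times, with intervals that spanned 0 and reached −0.56 and 0.45.

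**Figure D3:**
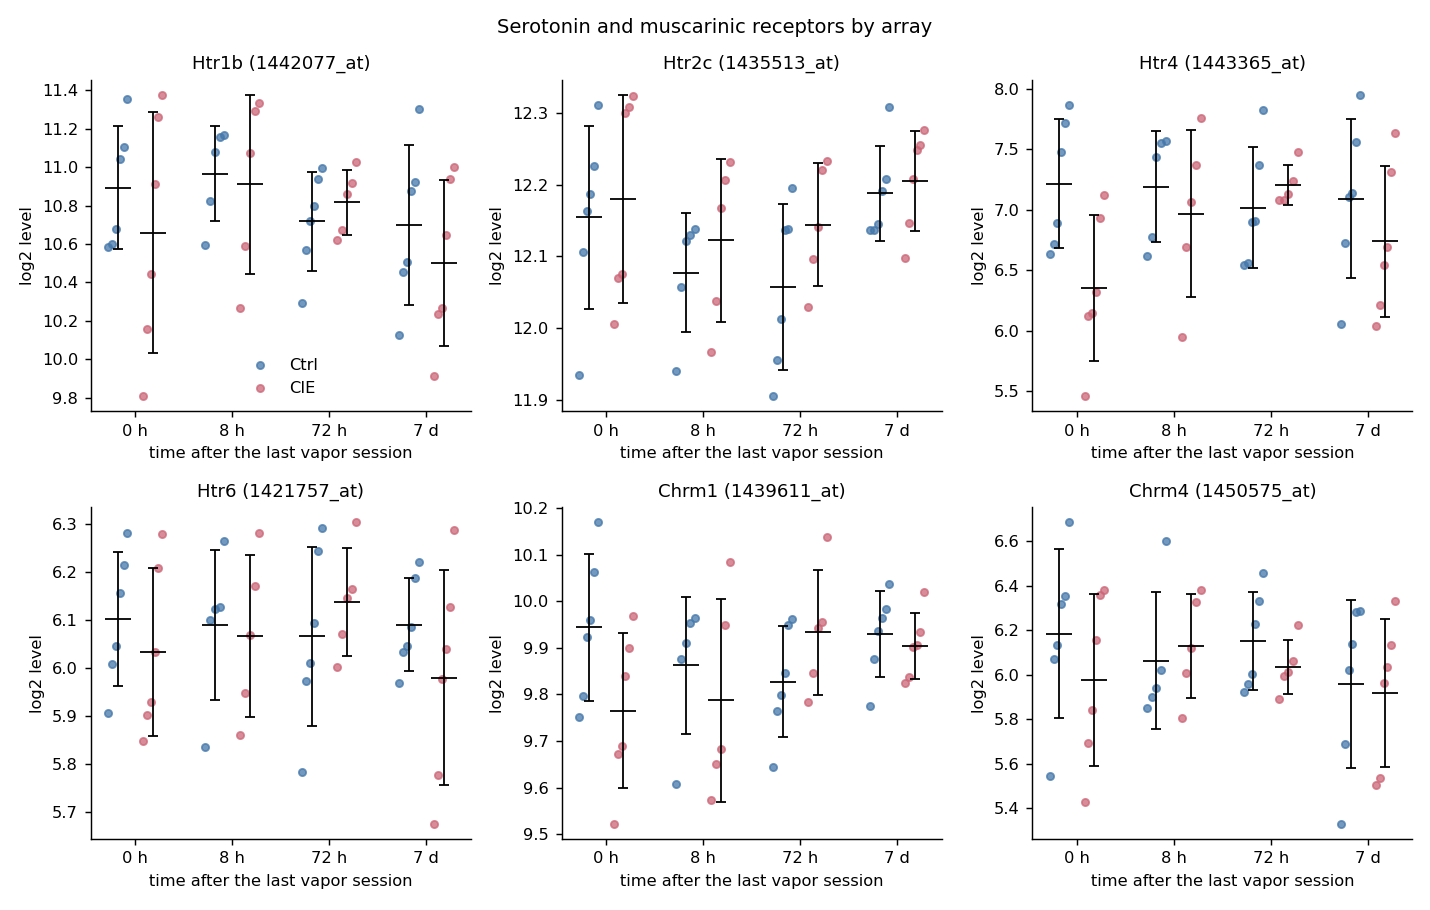
Log2 expression (y axis) of the brightest probeset of Htr1b, Htr2c, Htr4, Htr6, Chrm1 and Chrm4 by group and time (x axis), with 1 point for each array and black marks for the mean ± SD. CIE and Ctrl overlap in every panel and time, including Htr4 at 0 h (Ctrl 6.64 to 7.86, CIE 5.46 to 7.13).

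Markers of the cell types in and around the accumbens moved beside some of these differences. At 0 h, the mean of 21 measured medium spiny neuron markers (each as log2 deviation from its mean over all arrays) lay between −0.11 and 0.23 in Ctrl and between −0.48 and 0.26 in CIE, and 1 of 21 was higher in CIE, with a median change of −0.19 and none past the threshold. The mean of 14 cortical pyramidal neuron markers lay between −0.90 and 0.50 in Ctrl and between −0.74 and 1.08 in CIE, with 10 of 14 higher in CIE, a median change of 0.45 and none past the threshold. Against 1.59% of all probesets called at that time, 3 of 17 microglial markers fell, and the list mean lay between −0.17 and 0.29 in Ctrl and between −0.49 and −0.11 in CIE. Of 15 astrocyte markers 1 rose, and of 17 markers of endothelial cells and pericytes 1 rose and 1 fell, while none of 16 choroid plexus, 16 interneuron or 15 oligodendrocyte markers passed. None of these lists contains a member.

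With the medium spiny and cortical marker means as covariates, an alternative chosen after seeing the data, Hrh3 at 0 h had a difference of 0.56 (limma adjusted p = 6.10e-06). Without the 3 CIE arrays at 0 h that had the lowest medium spiny marker means (replicates 5, 67 and 72), also chosen after seeing the data, it was 0.54 (adjusted p = 0.00938). Those 3 arrays were also the lowest of the 6 CIE arrays for Hrh3 and for Htr1b, so the choice of arrays itself raises the difference of both genes. With the covariates Htr4 (1443365_at) at 0 h had −0.44 and Htr1b 0.17, neither called. Over all probesets these alternatives called 783 and 234, against 717 in the fit reported. The part of microglia in the Hrh3 difference was not tested.

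Across the 45 arrays, with group means removed, the members differed in how their levels went with these markers. Each member's brightest probeset was set against the means of the medium spiny, cortical and choroid plexus lists, 27 relations in all, with 100000 permutations each, and 9 had an adjusted p of 0.05 or less for Pearson's r. Genes and lists share the arrays, their dissection and their normalization, so these are descriptions of how levels varied together. Htr1b had r = 0.90 and Spearman's rho = 0.87 with the medium spiny list, and both p values were 1e-05, the smallest these permutations can give (adjusted 0.00014). Its r was 0.87 without the 2 arrays farthest from the median of the marker mean, and within the 6 hybridization sets it ran from 0.83 to 0.99.

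**Figure D4:**
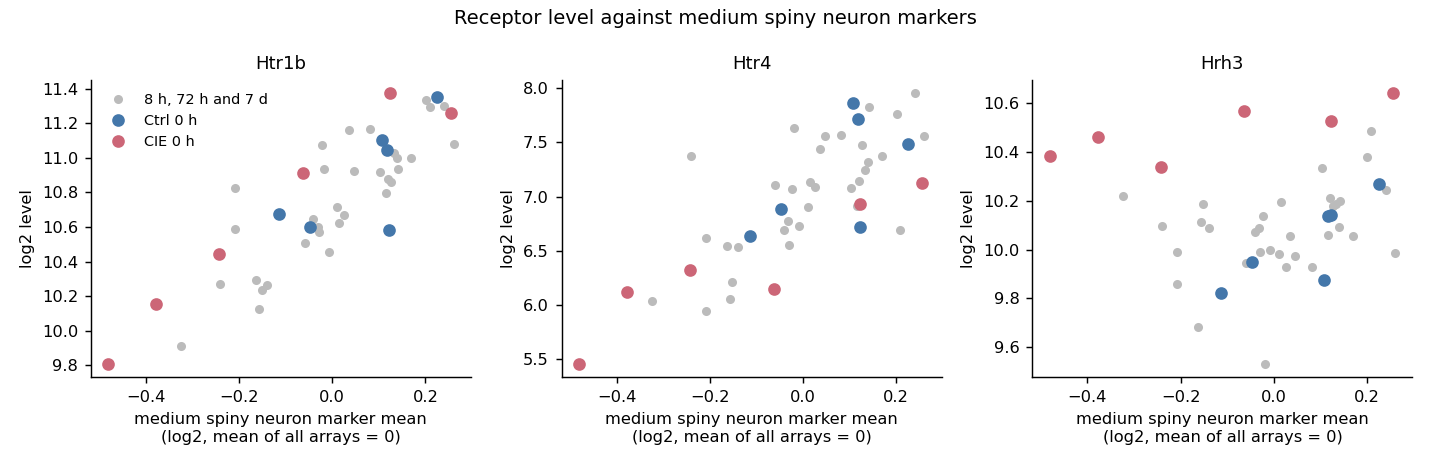
Log2 level of Htr1b, Htr4 and Hrh3 (y axis) against the mean of the medium spiny neuron markers (x axis, log2 deviation from the mean of all arrays), 1 point for each of 45 arrays, with the 0 h groups in colour and the later times in grey. Htr1b follows the markers most closely (r = 0.90 with group means removed), and the Hrh3 values of CIE at 0 h lie above those of Ctrl along the marker axis.

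Htr4 (r = 0.72), Htr6 (0.56), Chrm4 (0.52) and Hrh3 (0.46) also rose with the medium spiny list, and Hrh1 ran against it (−0.59). Within the 6 hybridization sets these r varied more widely than that of Htr1b. They ran from 0.27 to 0.98 for Htr4, 0.01 to 0.93 for Hrh3 and −0.03 to 0.96 for Chrm4. For Htr6 they ran from 0.33 to 0.785 and for Hrh1 from −0.95 to −0.20. Without the 2 farthest arrays Chrm4 had r = 0.40. For Hrh3 rho was 0.53, with permutation p values of 0.00195 for r and 0.00046 for rho and adjusted values of 0.0069 and 0.0025. With the cortical list the sign was opposite for Htr1b (r = −0.77), Htr4 (−0.76) and Hrh1 (0.47), and Hrh3 had r = 0.01. Htr2c had r = −0.31 with the choroid plexus list (adjusted p = 0.089), which did not pass, and no member passed with that list. By Spearman's rho 12 relations passed, the 9 above and 3 more: Chrm1 with the medium spiny list (rho = 0.41, adjusted p = 0.036, beside r = 0.39 and 0.070), and Htr6 (rho = −0.38, adjusted p = 0.049) and Chrm4 (rho = −0.47, adjusted p = 0.0125) with the cortical list. Htr2c and Hrh2 passed with none of the 3 lists by either measure. With hybridization set means removed as well, and with the values quantile normalized again, 9 relations passed each time, and without the 2 farthest arrays 12 did.

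**Figure D5:**
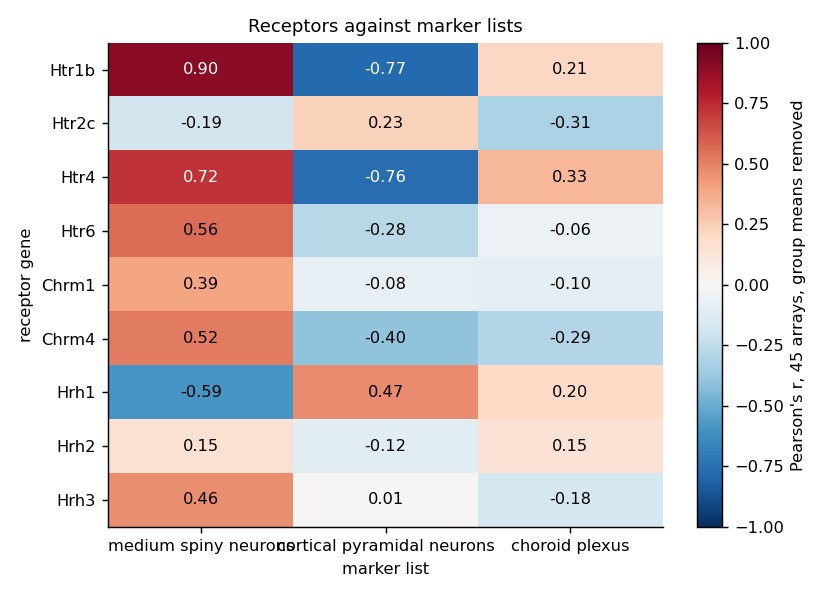
Pearson's r over 45 arrays, group means removed, of the 9 members' brightest probesets with the means of the medium spiny, cortical pyramidal and choroid plexus marker lists. Htr1b and Htr4 are high with the first list (0.90 and 0.72) and low with the second (−0.77 and −0.76), and Hrh1 has the opposite signs.

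The genes whose levels were most like a member's, by Pearson's r over 45 arrays, are given as descriptions. Group means were not removed here, so differences between groups that 2 genes share also enter these values. For Hrh3 they were Foxk2 (0.92), Caln1 (0.88) and Elk1 (0.86). For Htr1b they were Lamp5 (0.90), which is also on the cortical list although that list ran against Htr1b, with Diaph2 and Cbr3 (0.90 each). For Htr4 they were Vav3 (0.89), Gpr101 and Snx25 (0.88 each). Htr6 had Gsg1l (0.70), Lrtm2 (0.67) and Drd2 (0.66), the dopamine receptor of striatopallidal neurons. Hrh2 had the weakest likeness, with Siglece at 0.63, a microglial and myeloid surface receptor.

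The rest of the receptor pathway was followed in 90 measured genes with 211 probesets: other receptors of the 3 transmitters, nicotinic subunits, enzymes and transporters, effectors of each G protein, and receptor regulators. Counting each gene by its brightest probeset, 1 of 90 fell and none rose at 0 h, the 1 being Rgs2 among 17 receptor regulators, against 1.59% of all probesets called. None of 90 passed at 8 h, 72 h or 7 d. The median change at 0 h was 0.14 over 9 other serotonin receptors, 0.02 over 9 nicotinic subunits, −0.01 over 15 genes of synthesis, transport and breakdown, 0.09 over 11 Gq effectors, 0.13 over 9 Gi effectors, −0.01 over 18 Gs effectors and 0.00 over 17 receptor regulators. The median over all probesets was 0.00.

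Counting every probeset, 7 of 211 passed at 0 h, from Adcy9, Adcy1 and Rgs2, against 1.59% of all probesets. With the set as a block 2 of the 7 passed, 1434454_at of Adcy9 and 1419247_at of Rgs2, and by brightest probesets none of 90 genes did. At an unadjusted p under 0.05 there were 45 of 211 (21.3%, against 16.5% of all probesets). At 8 h, 72 h and 7 d none passed, with 5, 15 and 6 at that unadjusted level (2.37%, 7.11% and 2.84%, against 7.42%, 7.20% and 2.34% of all). Adcy9, a widely expressed adenylyl cyclase, rose at 3 of its probesets by 0.35 to 0.37. Over 9 alternatives the limma adjusted p of these ran up to 0.0495 at 1434454_at (8 passed). It ran up to 0.0589 at 1449620_s_at (6 passed) and 0.0422 at 1419811_at (6 passed). At 1434454_at the lowest, median and highest values were 9.08, 9.21 and 9.35 in Ctrl and 9.36, 9.61 and 9.73 in CIE, which did not overlap (adjusted p = 0.000321, limma). Its brightest probeset (1418586_at) had 0.28 with an adjusted p of 0.0176, which did not pass. At 1419811_at the CIE effect at 7 d minus that at 0 h was −0.48 (adjusted p = 0.00579, and 0.0371 with the set as a block).

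Rgs2, a regulator that speeds the return of Gq to its resting state, fell at 3 probesets, by 0.54 at 1419247_at, 0.39 at 1419248_at and 0.54 at 1447830_s_at on the log2 scale. At 1419247_at the lowest, median and highest values were 11.74, 11.91 and 12.08 in Ctrl and 11.12, 11.27 and 11.79 in CIE, so the ranges overlapped (adjusted p = 0.00116, limma). Without the 3 CIE arrays with the lowest medium spiny marker means it was −0.31 (adjusted p = 0.213). Adcy1, the calmodulin-stimulated adenylyl cyclase, rose by 0.47 at 1445359_at (adjusted p = 0.0022), and without those arrays had 0.27 (adjusted p = 0.293). At the later times, in order, the smallest p values of the pathway belonged to Pde4b (0.24, adjusted p = 0.135), Plcb4 (−0.55, adjusted p = 0.673) and Pde4d (0.32, adjusted p = 1.00 as rounded), and none passed.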

How the data were processed

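Each deposited value is a probeset's expression on the log2 scale. The authors hybridized RNA from single mice to 45 Affymetrix arrays, summarized each batch by RMA, quantile normalized all arrays together and adjusted for batch with ComBat. No source used here gives the RMA version. Those steps can shrink differences between batches and make arrays of a batch dependent. Detection calls were not used, so a low value is no evidence of absence.

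From there, limma 3.58.1 in R 4.3.3 was fitted to the 8 group means of all 45 arrays and 45037 probesets, with empirical Bayes moderation and Benjamini-Hochberg adjustment within each comparison, at an adjusted p of 0.01, as in the study's methods. Tests were two-sided. The replicates are separate mice, and their number limits the precision. Probesets were named through the platform annotation (34945 with 1 symbol, 932 with several, 9160 with none), and 34741 were found in RefSeq by gene ID. Where a gene had several probesets, lists counted the one with the highest mean. Named genes were the members, and pathway genes past the threshold or, where none passed, those with the smallest p. The 3 genes most like a member by r were named for Hrh3, Htr1b, Htr4 and Htr6, and the 1 most like Hrh2. Promoter sequences come from RefSeq (GRCm38.p6). They were found for 7 of the 9 genes.

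Hybridization sets were inferred from values equal within 2e-08 (at least 5 shared by a pair of arrays, with 10 to 57 in pairs of a set and at most 1 between sets). Alternatives were the set as a block, renewed quantile normalization, median centring, array weights, trended and robust moderation, a filter above the median level (8 of 14 members passed), brightest probesets alone, each time's arrays alone, and leaving out each array. Scripts were tested on simulated data. The members, gene lists and tests were chosen with earlier results of these data known.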

Additional observations from a re-analysis of the deposited data

Results flagged for a closer look

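Of 72 groups of 5 or 6 arrays tested for a single value far from the others by Dixon's ratio at the 95% level, 3 had one, and chance alone marks about 1 in 20 groups. Chrm1 read 9.61 in Ctrl 8 h replicate 79, below the other 4 arrays of its group (9.88 to 9.96). Chrm4 read 6.603 in Ctrl 8 h replicate 42, above the other 4 (5.85 to 6.02). Hrh3 read 9.53 in CIE 7 d replicate 13, below the other 5 (10.07 to 10.22).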

How the results depend on the processing

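Of the counts of members and of marker relations that passed, 117 values under alternatives stayed within 1.5 times the reported count and 14 did not. At 0 h the count of 1 became 0 with the set as a block and with the arrays of that time alone. With array weights it went from 0 to 1 at 72 h (Hrh2), for the mean of 4 times (Hrh3) and for time within Ctrl (Hrh2), and from 0 to 2 for the joint test of 4 times (Hrh3 and Hrh2). That joint test had 1 in place of 0 with renewed quantile normalization, with trended and robust moderation, above the median level and with brightest probesets alone. Time within CIE had 1 in place of 0 (Hrh3) with renewed quantile normalization, array weights, the filter and brightest probesets. The cause was not tested. Without single arrays the counts ran from 0 to 1 at 0 h, for the mean of 4 times, for time within CIE and for 7 d against 0 h within CIE, from 0 to 2 for the joint test, and stayed at 0 elsewhere.

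Of the differences of single members, none of those that changed sign had passed its test. With the marker means as covariates, at 0 h Htr1b became 0.17 and Htr6 0.045; at 8 h Htr1b became 0.032; at 72 h Htr6 became −0.015, Hrh1 0.012 and Hrh3 −0.019; and at 7 d Htr1b became 0.028, Chrm1 0.032, Chrm4 0.069 and Hrh3 0.044. Without the 3 CIE arrays at 0 h Htr1b became 0.29, Htr2c −0.10, Htr6 0.010 and Chrm4 0.11. Those arrays were also the lowest CIE arrays at 0 h for Htr1b and Chrm4 and the highest for Htr2c. The changes of sign of Htr1b, Chrm4 and Htr2c therefore follow from the choice of arrays. Htr2c at 0 h became −0.020 with the block and −0.0071 with array weights, which also gave Htr6 0.0033 at 8 h, Hrh1 0.055 at 72 h and Chrm4 0.044 at 7 d. Hrh1 at 72 h became 0.00039 with quantile normalization and 0.00051 with median centring. Leaving out single arrays moved Htr2c at 0 h from −0.018 to 0.061, Htr1b at 8 h from −0.16 to 0.11, Htr4 at 8 h from −0.42 to 0.032, Htr6 at 8 h from −0.087 to 0.027, Hrh1 at 72 h from −0.049 to 0.052, Chrm4 at 7 d from −0.17 to 0.042 and Hrh3 at 7 d from −0.085 to 0.052.

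Replicate numbers pair no mice, since each names 1 mouse and no groups share a number, and arrays of CIE and Ctrl were set side by side only within the inferred hybridization sets. With the set as a block, no member passed at 0 h and the pathway count went from 7 to 2. Arrays give no count depth, and probesets below the median level (6 of 14 members) can understate a difference.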
